A study of Ipomoea batatas with 9 samples.

Results

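Galactinol synthases and COR413 membrane proteins were followed in storage roots of sweetpotato (Ipomoea batatas) that were not stored, stored at 14 °C or stored at 4 °C. The set comprised every contig of the deposited expression table whose symbol began with GOLS or COR413, or whose product description contained the word galactinol. This gave 11 of 110110 contigs, namely 3 with the symbol GOLS2, 5 of the plasma membrane type of COR413 (4 named COR413PM2 and 1 named COR413PM1) and 3 of the inner membrane type (2 named COR413IM1 and 1 named COR413IM2). No description contained galactinol (0 contigs), and none of the 11 carried a product description, so their identity rests on the symbol the authors deposited. All roots were of the cultivar Xushu 18, and both stores were held at 85% relative humidity. There were 3 libraries per treatment and 7 roots were pooled for each of them; values after ± are SDs over those 3 libraries except where marked SE. How long the sequenced roots had been in store could not be read from the labels, and in the comparisons with roots that were not stored, time and temperature cannot be told apart.

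Galactinol synthase joins galactose from UDP-galactose to myo-inositol, and the product, galactinol, donates galactose to sucrose to make raffinose. Raffinose family sugars are compatible solutes that accumulate in many plants under cold and drought, and galactinol synthase is regarded as the entry enzyme of their synthesis. COR413 proteins are small proteins that span a membrane several times. In Arabidopsis the COR413PM proteins are placed in the plasma membrane and the COR413IM proteins in the inner envelope of the chloroplast, and their transcripts are known there for rising in the cold.

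The libraries held between 67.6 M and 95.4 M estimated counts (M stands for 1e6), and levels are given as CPM, counts per 1e6 of a library total scaled with TMM factors. A count of 0 allows up to 0.0318 to 0.0426 CPM depending on the library (3 counts, counting error only). Correlations of log2 CPM, taken over the 24128 contigs that averaged 5 CPM or more, were 0.957 to 0.989 between libraries of one treatment and 0.409 to 0.868 between libraries of different treatments. Sporamin contigs, the marker of storage root tissue, summed to 93961 ± 21286 CPM in roots not stored, 29760 ± 4593 CPM at 14 °C and 156 ± 115 CPM at 4 °C. In bulk tissue, fewer cells of a type and less RNA per cell cannot be told apart. Sweetpotato is polyploid, so contigs with one symbol may be copies of one gene, alleles or fragments, and their counts may share reads.

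At 4 °C against 14 °C, galactinol synthase transcripts were lower, plasma membrane COR413 transcripts were higher, and the more abundant inner membrane COR413 transcript was lower. Of the 11 contigs, 10 passed the filter on low counts and were tested. Of these, 4 rose, all of them COR413PM2, and 3 fell, 2 GOLS2 and 1 COR413IM1. GOLS2 comp47827_c1 and COR413PM2 comp89728_c1 passed the filter only through the treatment where they were high. Their calls are counted here and below but are description only. Over all 94802 contigs tested, 47.8% were called in this comparison, 23.8% higher and 24.0% lower (edgeR quasi-likelihood test, Benjamini-Hochberg adjusted p below 0.05 over all contigs). Against roots not stored, 5 of the 10 rose at 4 °C and 4 fell, where 52.5% of all contigs were called, 26.0% higher and 26.6% lower. At 14 °C against roots not stored, 2 fell and 0 rose in edgeR (0 higher at an unadjusted p below 0.05, 0 in DESeq2 and 0 in limma-voom), where 30.9% of all contigs were called, 15.7% lower and 15.1% higher. The libraries of both groups did not overlap in CPM for 60.4% of all contigs at 4 °C against 14 °C, 60.0% at 4 °C against roots not stored and 44.6% at 14 °C against roots not stored. These shares are the background for later statements on the CPM of 1 contig between 2 treatments. They were not computed for sums, TPM orders, TPM ratios or 1 treatment against both others. Both comparisons with roots not stored share those 3 control libraries.

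**Figure D1:**
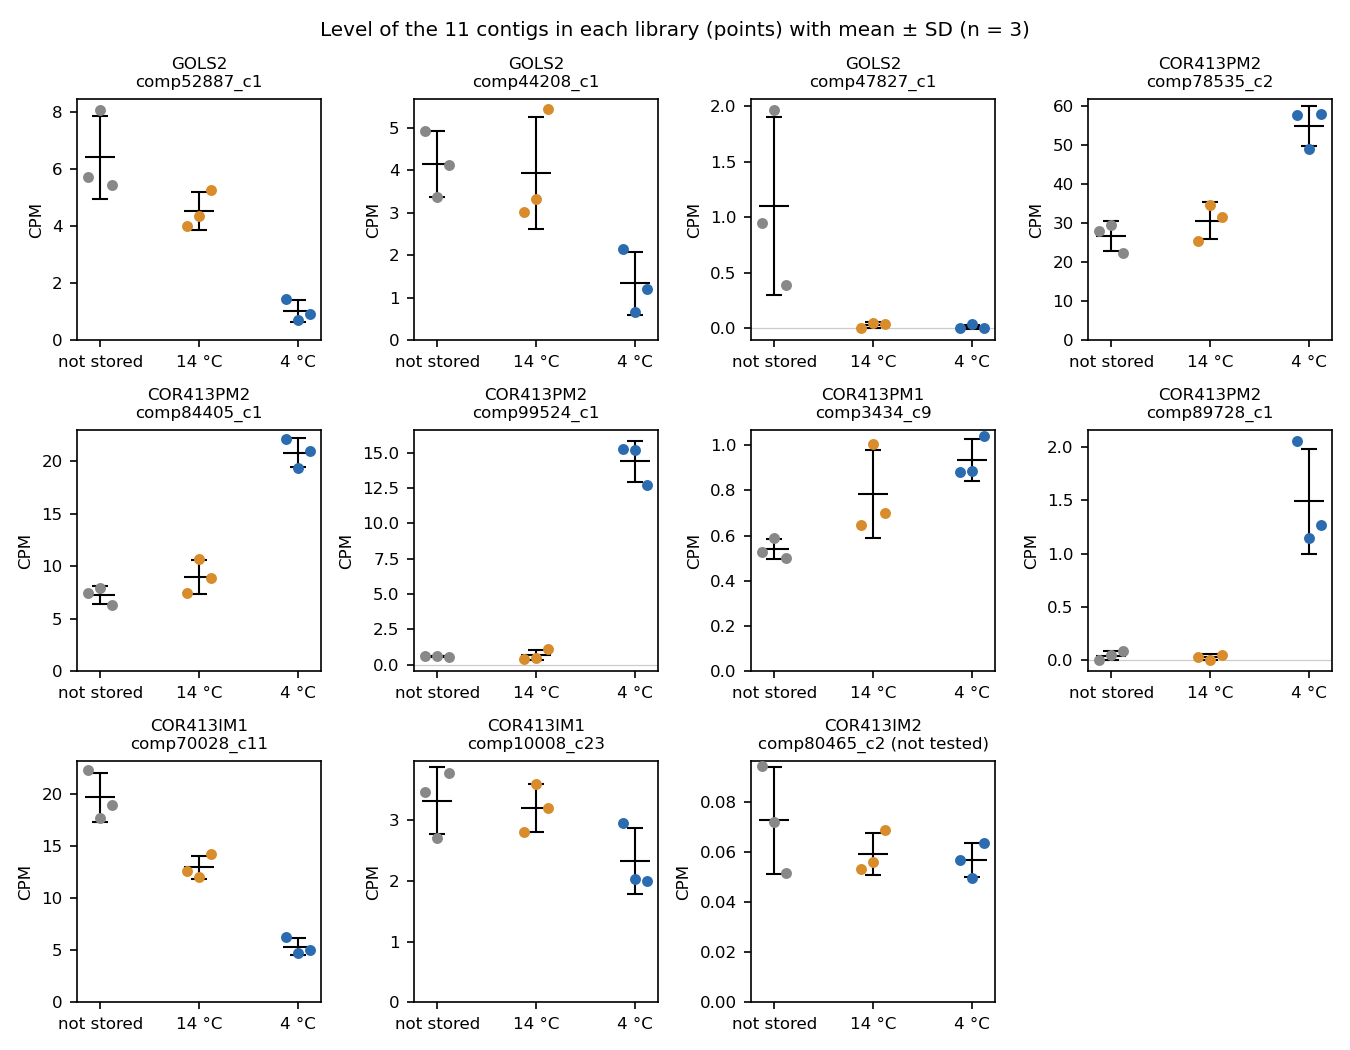
Level of each of the 11 contigs (CPM, linear axis that includes 0) in roots not stored, at 14 °C and at 4 °C. Points are libraries and bars are the mean ± SD (n = 3). The most abundant COR413PM2 contig stood at 48.9 to 57.9 CPM at 4 °C, above all other libraries, and GOLS2 comp52887_c1 at 0.722 to 1.46 CPM, below all others.

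The GOLS2 contig with the highest mean CPM over the 9 libraries, comp52887_c1 (1228 bases, 4 assembled transcripts), had 5.72, 8.08 and 5.43 CPM in replicates 1 to 3 of roots not stored. It had 3.99, 4.34 and 5.26 CPM at 14 °C and 1.46, 0.722 and 0.939 CPM at 4 °C. Every library at 4 °C lay below every other library, and those at 14 °C lay below those not stored in CPM. In the deposited, length-scaled TPM, those at 14 °C (3.93 to 4.88) and those not stored (4.17 to 6.99) overlapped. The log2 fold change was -2.12 ± 0.27 (SE) at 4 °C against 14 °C (edgeR adjusted p = 3.9e-05) and -2.63 ± 0.27 against roots not stored (edgeR adjusted p = 6e-06). At 14 °C against roots not stored it was -0.50 ± 0.25 and did not pass (edgeR adjusted p = 0.15).

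The GOLS2 contig comp44208_c1 (935 bases) had 4.93, 3.37 and 4.12 CPM in roots not stored and 3.02, 3.33 and 5.44 CPM at 14 °C. It had 2.14, 0.66 and 1.22 CPM at 4 °C. The libraries at 4 °C were again the lowest, and those of the other treatments overlapped. Per length, its mean was above that of comp52887_c1 in both stores (4.93 against 4.39 TPM at 14 °C and 1.57 against 0.95 TPM at 4 °C), with overlapping libraries. The log2 fold change at 4 °C was -1.55 ± 0.38 (SE) against 14 °C (edgeR adjusted p = 0.0052) and -1.63 ± 0.38 against roots not stored (edgeR adjusted p = 0.0034). The difference between 14 °C and not stored was -0.08 ± 0.36 on the log2 scale, and its sign changed when library totals alone were used for scaling (0.17).

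The GOLS2 contig comp47827_c1 (714 bases) was found almost only in roots not stored, at 0.953, 1.97 and 0.387 CPM. At 14 °C it had 0, 0.0447 and 0.0413 CPM, 7 counts in all. At 4 °C it had 0, 0.0374 and 0 CPM, 3 counts in all. It therefore differed from both other GOLS2 contigs in being near 0 in both stores. The ratio of roots not stored to 4 °C was 85.6 (95% exact binomial interval 29.0 to 418, edgeR adjusted p = 0.0003), and that to 14 °C was 41.0 (interval 19.6 to 103, edgeR adjusted p = 0.0013). The 3 counts at 4 °C all came from replicate 2; the fitted log2 fold change against roots not stored was -6.25 with it and -9.53 without it, and -5.57 without replicate 2 of the roots not stored. Against roots not stored, the value at 14 °C was -5.24, -4.57 without that same library and -4.62 without replicate 1 at 14 °C. With 7 and 3 counts in all, no fold is given between the stores. This contig passed the filter on low counts only through the roots not stored, and a fit of the stores alone did not test it. Its calls against roots not stored are therefore description only.

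Together the 3 GOLS2 contigs summed to 11.7 ± 1.74 CPM in roots not stored, 8.49 ± 1.98 CPM at 14 °C and 2.39 ± 1.11 CPM at 4 °C. The sums at 4 °C were 3.61, 1.42 and 2.16 CPM, all below the lowest other library (7.01 CPM). The sum at 14 °C was 3.55 times that at 4 °C. Sums in roots not stored and at 14 °C overlapped.

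Among the plasma membrane COR413 contigs, COR413PM2 comp78535_c2 (1033 bases) was the most abundant. It had 28.1, 29.6 and 22.5 CPM in roots not stored, 25.5, 34.8 and 31.6 CPM at 14 °C and 57.7, 48.9 and 57.9 CPM at 4 °C. All 3 libraries at 4 °C lay above the other 6, which overlapped in CPM. In TPM, those at 14 °C (29.8 to 40.57) lay above those not stored (21.51 to 24.29). The log2 fold change at 4 °C was 0.84 ± 0.15 (SE) against 14 °C (edgeR adjusted p = 0.00056) and 1.04 ± 0.15 against roots not stored (edgeR adjusted p = 9.8e-05). These are rises of 1.79-fold and 2.05-fold.

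COR413PM2 comp84405_c1 (911 bases) followed the same order at a lower level. It had 7.49, 7.95 and 6.32 CPM in roots not stored, 7.48, 10.7 and 8.86 CPM at 14 °C and 22.1, 19.4 and 21.0 CPM at 4 °C. The libraries at 4 °C stood apart from the rest. The log2 fold change was 1.21 ± 0.16 (SE) against 14 °C (edgeR adjusted p = 4.9e-05) and 1.52 ± 0.16 against roots not stored (edgeR adjusted p = 6.5e-06).

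COR413PM2 comp99524_c1 (952 bases) was scarce outside the cold store, at 0.635, 0.648 and 0.581 CPM in roots not stored and 0.435, 0.503 and 1.11 CPM at 14 °C. At 4 °C it had 15.3, 15.2 and 12.7 CPM. It rose 21.3-fold against 14 °C, a log2 fold change of 4.41 ± 0.31 (SE, edgeR adjusted p = 3.1e-07), and 23.1-fold against roots not stored, 4.53 ± 0.31 (edgeR adjusted p = 2.1e-07). Within the 10 members it had the smallest adjusted p in both comparisons of the cold store.

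COR413PM2 comp89728_c1 (483 bases) had few counts outside the cold store, 11 in all in roots not stored and 7 at 14 °C. It had 2.06, 1.15 and 1.27 CPM (337 counts) at 4 °C. Only through these libraries did it pass the filter on low counts, so its calls are description only. The ratio of 4 °C to 14 °C was 53.8 (95% exact binomial interval 25.8 to 135, counting error only). The fitted log2 fold change was 5.68 ± 0.77 (SE, edgeR adjusted p = 8.9e-05) against 14 °C and 5.0 ± 0.73 against roots not stored (edgeR adjusted p = 0.00013). Against 14 °C it was 5.08 without replicate 2 there and 6.39 without replicate 3 there. Against roots not stored it was 4.39 without replicate 1 and 5.82 without replicate 3 of those roots, and its call was kept in each of these 4 cases.

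COR413PM1 comp3434_c9, a short contig of 237 bases, stayed below 1 CPM in every group mean. It had 0.503 to 0.588 CPM in roots not stored, 0.647 to 1.01 CPM at 14 °C and 0.88 to 1.04 CPM at 4 °C. Libraries of both stores overlapped, and the log2 fold change of 0.25 ± 0.27 (SE) between them was not called (edgeR adjusted p = 0.47). Against roots not stored it rose at 4 °C by 0.79 ± 0.27 on the log2 scale (edgeR adjusted p = 0.029). That call was lost without any single library of the roots not stored and without replicate 2 or 3 at 4 °C (edgeR adjusted p = 0.051 to 0.088).

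The 5 plasma membrane contigs summed to 35.2 ± 4.64 CPM in roots not stored, 41.1 ± 6.52 CPM at 14 °C and 92.5 ± 6.39 CPM at 4 °C. The sum at 4 °C was 2.25 times that at 14 °C. At 14 °C against roots not stored 0 of these 5 passed the test in edgeR, with 0 at an unadjusted p below 0.05 and 0 in DESeq2 and limma-voom. This comparison depended on scaling: with library totals alone, comp78535_c2 (log2 fold change 0.45), comp84405_c1 (0.57) and comp3434_c9 (0.79) were called higher at 14 °C (edgeR adjusted p = 0.035, 0.017 and 0.049). That scaling moved the median log2 fold change of all contigs in this comparison from 0.02 to 0.27, and the share of called contigs that were higher from 49.0% to 67.9%. The share of all counts in the 100 contigs with the most counts was 27.2% to 30.7% where roots were not stored; it was 19.9% to 21.1% with storage at 14 °C and 13.5% to 14.4% with storage at 4 °C.

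**Figure D2:**
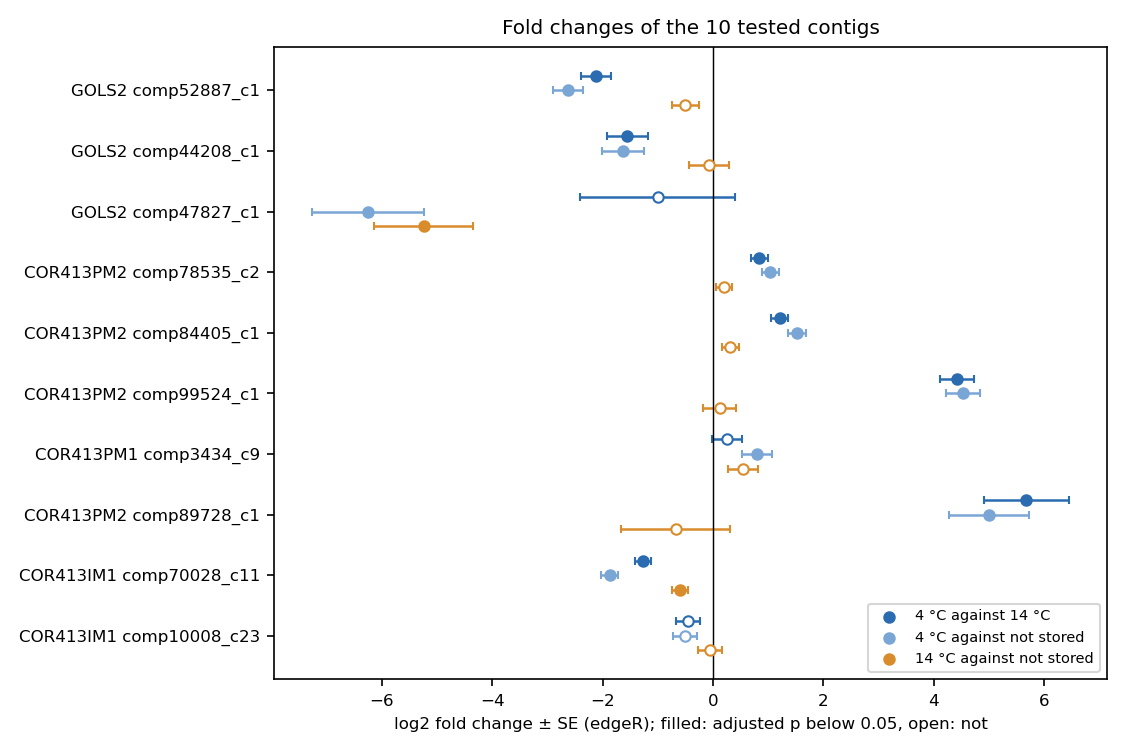
Log2 fold change ± SE of the 10 tested contigs in the 3 comparisons (edgeR); filled points had an adjusted p below 0.05. The 4 COR413PM2 contigs lie right of 0 in both comparisons of the cold store, from 0.84 to 5.68 against 14 °C, and the 3 GOLS2 contigs and COR413IM1 comp70028_c11 lie to the left. The open point of GOLS2 comp47827_c1 between the stores rests on 3 and 7 counts and is not read as a fold.

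Of the inner membrane type, 1 of 2 tested contigs fell at 4 °C. This was COR413IM1 comp70028_c11, the more abundant. COR413IM1 comp70028_c11 (929 bases, 4 assembled transcripts) had 22.3, 17.7 and 19.0 CPM in roots not stored, 12.59, 12.04 and 14.2 CPM at 14 °C and 6.25, 4.77 and 5.06 CPM at 4 °C. The 3 treatments did not overlap in CPM. In TPM, roots not stored (16.51 to 21.0) and roots at 14 °C (16.25 to 17.43) overlapped. The log2 fold change was -1.27 ± 0.15 (SE) at 4 °C against 14 °C (edgeR adjusted p = 2.4e-05), -1.88 ± 0.15 at 4 °C against roots not stored (edgeR adjusted p = 8.2e-07) and -0.60 ± 0.15 at 14 °C against roots not stored (edgeR adjusted p = 0.0089). The last call was lost with library totals alone (log2 fold change -0.36, edgeR adjusted p = 0.084).

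COR413IM1 comp10008_c23 (686 bases, 10 assembled transcripts) had 3.47, 2.71 and 3.78 CPM in roots not stored, 2.81, 3.6 and 3.19 CPM at 14 °C and 2.95, 2.03 and 2.01 CPM at 4 °C. The libraries of the 3 treatments overlapped. The log2 fold change at 4 °C of -0.46 ± 0.22 (SE) against 14 °C was not called (edgeR adjusted p = 0.1), nor was that of -0.51 ± 0.22 against roots not stored (edgeR adjusted p = 0.065). Both lay near the threshold. Without replicate 1 at 4 °C they were -0.66 and -0.71 and passed (edgeR adjusted p = 0.039 and 0.025). The change against 14 °C also passed with library totals alone (-0.61, edgeR adjusted p = 0.045). The change against roots not stored also passed without replicate 2 of those roots (-0.66, edgeR adjusted p = 0.032), with the stricter filter (-0.57, edgeR adjusted p = 0.036) and in DESeq2 (-0.51, adjusted p = 0.0497).

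COR413IM2 comp80465_c2 (398 bases) did not pass the filter on low counts. It had 0.0516 to 0.0941 CPM in roots not stored, 0.053 to 0.0688 CPM at 14 °C and 0.0498 to 0.0635 CPM at 4 °C, 13 to 18 counts per treatment, and a difference was not detectable at this depth. Contigs of light-harvesting and photosystem proteins, the list taken as a marker of green tissue, moved in the same direction as COR413IM1 comp70028_c11. They summed to 1669 to 2443 CPM in roots not stored, 576 to 596 CPM at 14 °C and 174 to 203 CPM at 4 °C. At 4 °C against 14 °C 48 of 101 tested fell and 7 rose, beside 24.0% lower and 23.8% higher of all contigs. At 14 °C against roots not stored 54 fell and 1 rose, beside 15.7% lower and 15.1% higher of all contigs. Their part in the fall of COR413IM1 was not tested.

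Levels of different contigs were compared in TPM, the authors' length-scaled unit. In roots not stored COR413PM2 comp78535_c2 (22.6 ± 1.51 TPM) ranked first and COR413IM1 comp70028_c11 (19.2 ± 2.35 TPM) second, and their libraries did not overlap. Next came COR413PM2 comp84405_c1 (7.04 ± 0.41 TPM), COR413IM1 comp10008_c23 (6.16 ± 1.37 TPM), GOLS2 comp52887_c1 (5.29 ± 1.5 TPM) and GOLS2 comp44208_c1 (3.92 ± 0.72 TPM), each overlapping with its neighbour among these 4. COR413PM1 comp3434_c9 (2.88 ± 0.24 TPM), GOLS2 comp47827_c1 (1.37 ± 0.97 TPM) and COR413PM2 comp99524_c1 (0.577 ± 0.035 TPM) followed, of which the last 2 overlapped. COR413IM2 comp80465_c2 (0.187 ± 0.021 TPM) and COR413PM2 comp89728_c1 (0.103 ± 0.105 TPM) came last and overlapped.

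At 14 °C the first 4 contigs kept this order, with 34.8 ± 5.43 TPM for COR413PM2 comp78535_c2, 16.8 ± 0.59 TPM for COR413IM1 comp70028_c11, 11.8 ± 2.27 TPM for COR413PM2 comp84405_c1 and 8.11 ± 0.76 TPM for COR413IM1 comp10008_c23. COR413PM1 comp3434_c9 (5.64 ± 1.53 TPM), GOLS2 comp44208_c1 (4.93 ± 1.39 TPM) and GOLS2 comp52887_c1 (4.39 ± 0.48 TPM) came next, and from the fourth place on these overlapped with their neighbours. The other 4 were below 1 TPM in their mean. At 4 °C the first 3 places were all COR413PM2, comp78535_c2 with 57.2 ± 8.52 TPM, comp84405_c1 with 24.9 ± 2.75 TPM and comp99524_c1 with 16.3 ± 0.85 TPM, none overlapping with its neighbour. COR413IM1 comp70028_c11 (6.46 ± 1.01 TPM), COR413PM1 comp3434_c9 (6.13 ± 1.02 TPM), COR413IM1 comp10008_c23 (5.76 ± 1.5 TPM) and COR413PM2 comp89728_c1 (3.7 ± 1.21 TPM) overlapped from one neighbour to the next. GOLS2 comp44208_c1 (1.57 ± 0.87 TPM) and comp52887_c1 (0.95 ± 0.36 TPM) overlapped, and the remaining 2 contigs, COR413IM2 comp80465_c2 and GOLS2 comp47827_c1, were below 0.2 TPM in their mean.

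The make-up of the plasma membrane COR413 transcripts differed in the cold store. COR413PM2 comp99524_c1 made up 1.70%, 1.63% and 1.89% of the summed TPM of the 5 contigs in roots not stored, 1.24%, 1.02% and 2.56% at 14 °C and 15.2%, 17.3% and 13.2% at 4 °C. COR413PM2 comp78535_c2 fell in share from 65.6 ± 1.03% at 14 °C to 52.7 ± 2.0% at 4 °C while its own level rose. COR413PM2 comp84405_c1 held 21.1% to 23.2% in each of the 9 libraries. Relative to comp78535_c2 within a library, the TPM of comp99524_c1 was 0.0244 ± 0.0124 at 14 °C and 0.290 ± 0.0495 at 4 °C, that of comp84405_c1 0.337 ± 0.0155 and 0.437 ± 0.0195, and that of COR413PM1 comp3434_c9 0.161 ± 0.0214 and 0.108 ± 0.0103. The libraries of both stores did not overlap in any of these 3 ratios (two-sided exact permutation test, p = 0.1 each, the smallest that 3 against 3 libraries allow, or 0.12 adjusted over 6 such ratios).

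Within the inner membrane type, COR413IM1 comp10008_c23 had 0.482 ± 0.0564 of the TPM of comp70028_c11 at 14 °C and 0.885 ± 0.112 at 4 °C, again without overlap (exact permutation p = 0.1). In share, comp70028_c11 took 75.3 ± 1.93% of the inner membrane TPM in roots not stored, 67.0 ± 2.48% at 14 °C and 52.4 ± 2.91% at 4 °C. COR413IM2 comp80465_c2 had 0.0119 ± 0.00117 and 0.0272 ± 0.00491 of the TPM of comp70028_c11 at 14 °C and 4 °C (exact permutation p = 0.1), from few counts. Within the galactinol synthases, comp44208_c1 stood at 1.11 ± 0.195 times the TPM of comp52887_c1 at 14 °C and 1.57 ± 0.364 times at 4 °C, and these ratios overlapped (exact permutation p = 0.2). GOLS2 comp47827_c1 held 11.7%, 19.5% and 5.80% of the galactinol synthase TPM in roots not stored and 0% to 4.23% in the stored roots.

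**Figure D3:**
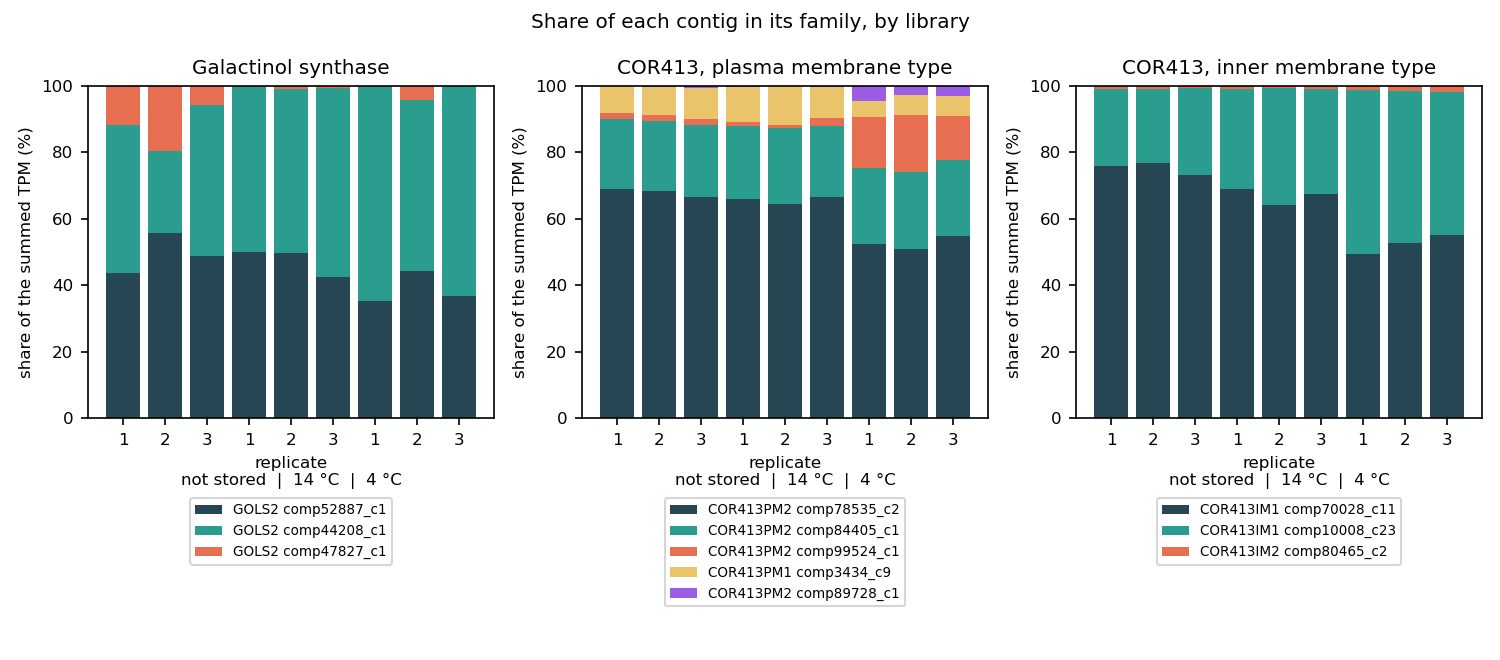
Share of each contig in the summed TPM of its family (stacked bars, percent) for each of the 9 libraries. COR413PM2 comp99524_c1 takes 13.2% to 17.3% at 4 °C and at most 2.56% elsewhere, and COR413IM1 comp70028_c11 takes 49.3% to 55.1% at 4 °C and at least 64.3% elsewhere.

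In the pathway around galactinol, both substrates and the following steps were represented. UDP-glucose 4-epimerase, which supplies UDP-galactose, rose at 4 °C against 14 °C in 10 of 16 contigs and fell in 0 (edgeR; 1 lower at an unadjusted p below 0.05, 0 called lower in DESeq2 and 1 in limma-voom). The median log2 fold change of the 16 was 1.03, against -0.08 for all contigs tested, of which 23.8% rose and 24.0% fell. Their sum was 384 ± 50.5 CPM at 4 °C, 89.2 ± 5.34 CPM at 14 °C and 87.3 ± 4.19 CPM in roots not stored. UGE1 (comp104997_c5) rose from 29.4 ± 0.91 CPM at 14 °C to 240 ± 40.5 CPM at 4 °C, with a log2 fold change of 3.03 ± 0.15 (SE, edgeR adjusted p = 1.7e-08).

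Contigs for myo-inositol synthesis went both ways, with 4 higher and 4 lower of 15 tested and a median of 0.21, close to the 23.8% higher and 24.0% lower of all contigs. Among the 4 that rose was the inositol monophosphatase IMP3 (comp59725_c19), which releases myo-inositol from its phosphate, at 29.1 ± 3.66 CPM at 4 °C against 7.6 ± 1.12 CPM (log2 fold change 1.94 ± 0.17 SE, edgeR adjusted p = 1.7e-06). Both tested contigs of myo-inositol-1-phosphate synthase, the enzyme that commits glucose 6-phosphate to myo-inositol, fell at 4 °C against 14 °C, and both had risen at 14 °C against roots not stored. The more abundant of them, comp27799_c1, had 24.8 ± 2.39 CPM in roots not stored, 58.9 ± 13.8 CPM at 14 °C and 38.8 ± 6.82 CPM at 4 °C. It was thus also higher at 4 °C than in roots not stored, by 0.64 ± 0.18 on the log2 scale (SE, edgeR adjusted p = 0.01); it was named after its values were seen.

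Contigs with an RFS symbol, used for raffinose synthases, rose in 7 and fell in 2 of 19, with a median of 0.18. Over all contigs, 23.8% rose and 24.0% fell. No RFS contig is described as a raffinose synthase. Most are described as a stachyose synthetase, so the count is of the symbol and not of a single enzyme. The descriptions of 2 others name neither enzyme. RFS2 comp74841_c2, 1 of the 7 that rose, is described as an aldehyde dehydrogenase. RFS2 comp27026_c7, which was not called, is described as an aminotransferase. All 4 RFS1 contigs were among the 7 that rose. DESeq2 and limma-voom each called 4 lower instead of 2. RFS1 (comp90603_c2), described in the table as a stachyose synthetase, had 11.7 ± 0.89 CPM in roots not stored, 3.47 ± 0.44 CPM at 14 °C and 24.6 ± 2.80 CPM at 4 °C. Its log2 fold change was 2.83 ± 0.15 (SE, edgeR adjusted p = 3.2e-08) at 4 °C against 14 °C and -1.76 ± 0.15 at 14 °C against roots not stored (edgeR adjusted p = 7.3e-06). RFS2 (comp94845_c1), the most abundant of the 19, had 212 ± 7.36 CPM in roots not stored, 89.4 ± 7.18 CPM at 14 °C and 77.5 ± 2.73 CPM at 4 °C. It was named after its values were seen. Alpha-galactosidase, which removes galactose from raffinose and other galactosides, had 7 of 20 contigs lower and 4 higher, with a median of -0.36, beside 24.0% lower and 23.8% higher of all contigs. Its contig comp39153_c7 fell from 36.5 ± 4.07 CPM at 14 °C to 15.1 ± 2.31 CPM at 4 °C (log2 fold change -1.28 ± 0.15 SE, edgeR adjusted p = 1.9e-05).

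Other cold-related symbols in the table were few. All 3 contigs of LTI6A, a small hydrophobic membrane protein known in rice for its induction by low temperature, rose at 4 °C against 14 °C. LTI6A (comp69770_c1) had 38.5 ± 6.07 CPM in roots not stored, 20.7 ± 3.90 CPM at 14 °C and 56.8 ± 5.96 CPM at 4 °C, which differed between the stores by 1.46 ± 0.16 on the log2 scale (SE, edgeR adjusted p = 1.6e-05). Both contigs of LEA5-D, a late embryogenesis abundant protein, fell in edgeR, and limma-voom called 1 of them. DREB1 (CBF) factors activate cold-regulated genes in Arabidopsis, and SCRM (ICE) factors activate DREB1 genes there. These symbols were lower in 9 of 11 contigs tested at 14 °C and in 7 of 11 at 4 °C, each against roots not stored. Of all contigs, 15.7% and 26.6% were lower in these comparisons. Every tested DREB1 contig was lower in both. Of 4 SCRM contigs, 2 were lower at 14 °C and 1 at 4 °C, and the SCRM2 contig was lower only at 14 °C. At 4 °C against 14 °C, 1 rose and 3 fell, beside 23.8% and 24.0% of all contigs. The summed level of the DREB1 and SCRM contigs was 289 to 668 CPM in roots not stored, 39.8 to 47.6 CPM at 14 °C and 11.4 to 14.3 CPM at 4 °C. DREB1D (comp55413_c1), at 318 ± 168, 2.62 ± 0.55 and 1.32 ± 0.015 CPM in the same order, made up most of the sum in roots not stored. It was named after its values were seen. Most of the sum at 14 °C came from SCRM comp54661_c1. SCRM (comp54661_c1), whose description, a phytochrome-interacting factor, names another protein, fell from 35.7 ± 4.24 to 4.17 ± 0.42 CPM between 14 °C and 4 °C (log2 fold change -3.10 ± 0.13 SE, edgeR adjusted p = 6.6e-09).

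**Figure D4:**
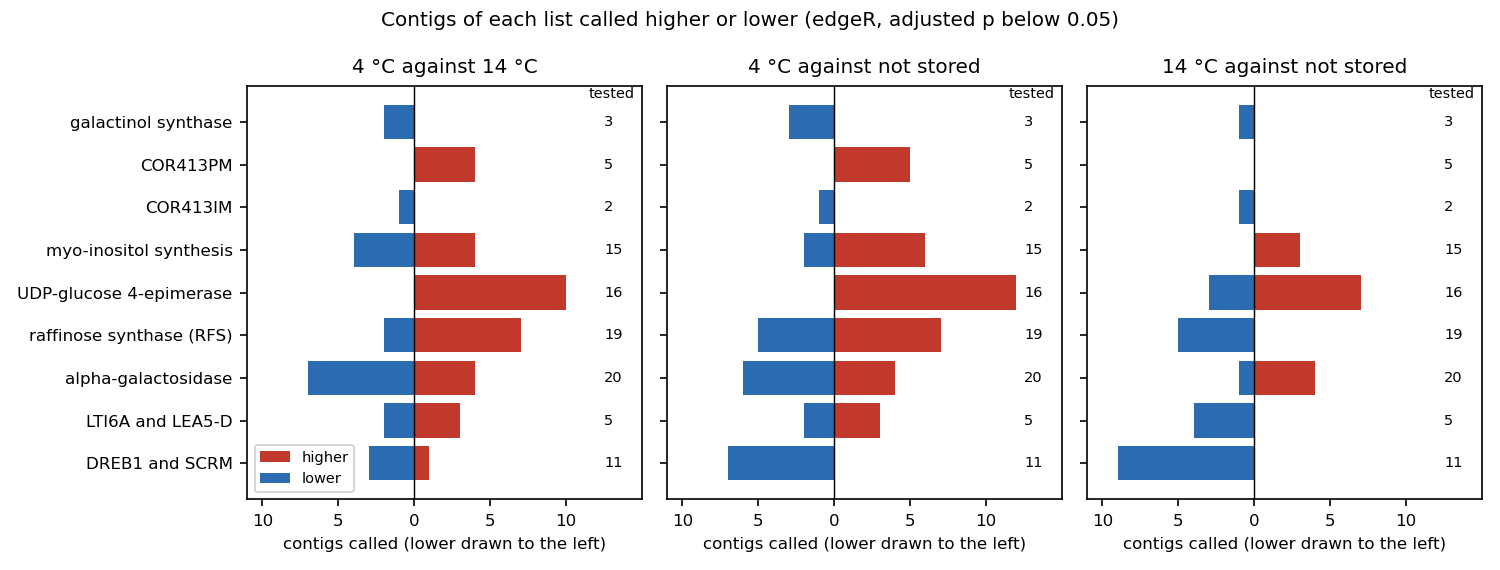
Number of contigs called higher (right) or lower (left) in each comparison, for the 3 member families and the lists of related genes; the number tested stands at the right edge. UDP-glucose 4-epimerase has 10 of 16 higher and COR413PM 4 of 5 higher at 4 °C against 14 °C, while DREB1 and SCRM have 9 of 11 lower at 14 °C against roots not stored. Of all contigs tested, 23.8% were higher in the first comparison and 15.7% lower in the second.

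The contigs most like the leading member of each family over the 9 libraries were also listed, from 8395 contigs with a product description and a mean of at least 5 CPM. Likeness was the Pearson correlation of log2(CPM + 0.5), given as a description only, since the 9 libraries fall into 3 treatments and many contigs share that order (301 were above 0.95 for GOLS2 and 166 for COR413PM2). For GOLS2 comp52887_c1 the nearest was CTR1 (comp50053_c2, 0.996), a symbol used for a kinase of ethylene signalling, at 9.10, 7.61 and 1.96 CPM on average in roots not stored, at 14 °C and at 4 °C. It was followed by ERF010 (comp24351_c1, 0.994), NUCL2 (comp60113_c11, 0.991), DLD (comp49373_c4, 0.988) and RING1 (comp51554_c1, 0.986). For COR413PM2 comp78535_c2 the nearest was ATJ6 (comp95162_c3, 0.989), a DnaJ-type protein, at 6.75, 7.94 and 20.6 CPM in the same order of treatments. It was followed by the homeobox protein ATHB-12 (comp6490_c2, 0.985), the heme oxygenase HO1 (comp84613_c1, 0.982), a spermidine synthase (comp108307_c1, 0.982) and a high mobility group protein (comp3284_c4, 0.981).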

How the data were processed

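RNA of 9 libraries in 3 treatments was sequenced; the extraction text in the labels describes another tissue and was not used. Per the file headers, the authors deposited estimated counts, TPM and RPKM for each contig and library. Tools listed in the submitters' processing notes, with no role, are StringTie 1.3.4d, HISAT2 2.0.4, cutadapt 1.9, edgeR and DESeq2; which of them made the estimated counts, and whether strand was used, are not given in the sources used here. Deposited TPM were used to compare contigs by level; the deposited RPKM were not used. No contig identifier or member symbol matched the reference gene table (0 of 110110 identifiers), and sequences were not used here.

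After rounding to whole numbers, estimated counts were tested with edgeR 4.0.16 (TMM, filterByExpr, robust quasi-likelihood fit over all 9 libraries, false discovery rate 0.05) in R 4.3.3; 94802 of 110110 contigs passed the filter. SE is the log2 fold change divided by the square root of F. P-values measure the spread between pools of 7 roots. The sources used here name no molecular barcodes, and intervals and floors therefore reflect counting error alone. Alternatives were DESeq2 1.42.0 scaling and Wald test, limma-voom (limma 3.58.1), no filter or a stricter one (1 CPM in 3 libraries), scaling by library totals alone, a block for the replicate number, a fit on the 2 compared groups, removal of the 100 most abundant contigs, a 2-fold minimum, and each library left out. Data were also simulated, with the mean levels of roots not stored in all 3 groups and 86212 contigs tested. For 4 °C against 14 °C, edgeR recovered 88.2% of 68 contigs at a simulated 4-fold change. It recovered 33.3% of 63 at 2-fold and 2.9% of 69 at 1.5-fold, and called 7 unchanged contigs. Only the contigs counted here were changed, whereas 47.8% of contigs were called between the stores in the data. The adjusted p depends on that share, so these rates do not measure recovery in the real comparison. Tables and figures used Python 3.11.15, pandas 2.3.3, scipy 1.17.1 and matplotlib 3.10.9.

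The members and lists were chosen with earlier results of these data known. Members with at least 1 CPM in a group mean were given in full. Among contigs of a list with at least 5 CPM in a group mean, the one with the lowest adjusted p between the stores was named. Raffinose synthases were matched by symbol because the planned enzyme names were found in no description, and kinesins, kinase subunits, CBF5 and COR2, which share letters with the cold-regulated symbols, were left out, both after the table was seen. No description contained dehydrin.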

Additional observations from a re-analysis of the deposited data

How the results depend on the processing

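In every alternative run, the numbers of members called at 4 °C, against 14 °C and against roots not stored, stayed within 1.5 times, at 4 higher and 3 to 4 lower against 14 °C and 4 to 5 higher and 4 to 5 lower against roots not stored when single libraries were left out. Single calls changed for 2 members, COR413PM1 comp3434_c9, whose call against roots not stored was lost in 5 such fits, and COR413IM1 comp10008_c23, which gained calls in 6 fits over both comparisons. At 14 °C against roots not stored, 0 higher and 2 lower became 3 and 1 with library totals alone, and the 2 lower became 1 with the stricter filter, where GOLS2 comp47827_c1 was not tested, and 1 with a 2-fold minimum. Signs reversed only for uncalled changes of that comparison. GOLS2 comp44208_c1 (-0.08) was 0.17 with library totals and -0.38 to 0.086 with single libraries left out, COR413IM1 comp10008_c23 (-0.05) was 0.19 and -0.21 to 0.038, COR413PM2 comp99524_c1 (0.12) was -0.033 in limma-voom and -0.40 to 0.37, and COR413PM2 comp89728_c1 (-0.68) was -1.39 to 0.14.

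Log2 ratios of summed levels moved by more than the spread between replicates when the deposited TPM replaced CPM: at 14 °C against roots not stored from -0.46 to -0.18 for GOLS2, 0.23 to 0.68 for COR413PM and -0.51 to -0.021 for COR413IM, and at 4 °C against roots not stored from 1.39 to 1.71 for COR413PM and -1.57 to -1.04 for COR413IM. Without its most abundant contig, COR413PM was 1.84 against 14 °C and 2.15 against roots not stored at 4 °C, and COR413IM -0.45 and -0.51, with -0.058 at 14 °C against roots not stored. Deposited TPM carry no TMM factors. These factors were 0.892, 0.895 and 0.985 in roots not stored, 1.09, 1.13 and 1.07 at 14 °C and 0.992, 0.939 and 1.04 at 4 °C. The cause of the shifts in these log2 ratios was not tested.

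Deviations from the group means were compared between libraries of different treatments over 24128 contigs. Correlations were -0.57 to 0.32 in 9 same-numbered pairs and -0.31 to 0.52 in 18 others. Same-numbered pairs of roots not stored with 4 °C were all positive (0.28, 0.10 and 0.32). Those between the stores were all negative (-0.33, -0.03 and -0.27), and those of roots not stored with 14 °C were -0.38, 0.02 and -0.57. With 3 libraries per treatment this cannot settle whether the numbers mark pairs, and they were not taken as pairs. With the replicate block, members called were 4 higher and 3 lower for 4 °C against 14 °C, 5 and 4 for 4 °C against roots not stored, and 0 and 2 for 14 °C against roots not stored, as without it. Few counts limit GOLS2 comp47827_c1 in stored roots, COR413PM2 comp89728_c1 outside the cold store and COR413IM2 comp80465_c2 throughout.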
